A study of Mus musculus with 15 samples.

Results

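The 41 genes described here encode the machinery that copies DNA in S phase. They were chosen by name, for their role at origins, at forks and in nucleotide supply, and not by a threshold on these values. They comprise the loaders and ring of the replicative helicase, the factors that start it, the polymerases, the sliding clamp, the proteins that bind and join strands, chromatin assembly, and the supply of deoxynucleotides. The 15 libraries together listed 21788 gene symbols. All 41 genes were listed in 13 of the libraries, and 39 in the bulk pair, where Cdc6 and Uhrf1 were not listed. RNA came from CD8+ T cells of tumours grown from E.G7 cells, an ovalbumin-expressing line of the EL4 T cell lymphoma, placed under the skin of female mice and taken on day 21, when the mice were 9 to 11 weeks old. Ovalbumin-specific cells sorted in bulk gave 1 library from wild-type mice and 1 labelled KO, for knockout of B7S1, each group holding 6 mice. PD-1+ cells were sorted into B7S1R_SP (B7S1 receptor without Tim-3), TIM-3_SP (Tim-3 without the receptor) and DN (neither), each with 2 wild-type libraries, numbered 1 and 2, and 1 labelled KO. Single libraries titled Control, anti_B7S1, anti_PD1 and combo were labelled wild type, with no antibody dose or schedule in the labels. The strain is C57BL/6, but in the sorted libraries the strain field, and in the sorted KO libraries the genotype field, count upward from one library to the next, so groups rest on the titles. The labels do not say whether libraries of a group came from separate mice or from pooled ones, so p-values measure the spread between these libraries, which may be technical.

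Before S phase, the origin recognition complex (Orc1 and Orc6 among its subunits) works with Cdc6 and Cdt1 to load the ring of Mcm2 to Mcm7 onto DNA, a step called licensing. Cyclin E with its kinase, Mcm10, Cdc45 and the GINS complex then switch the ring on as a helicase, and polymerases extend the strands that primase starts. T cells at rest keep most of these genes low and raise them when they enter the cell cycle, in large part through E2F transcription factors, so their transcripts are widely read as a sign of cells in S phase.

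Because E2F factors are known regulators of this gene class, the promoters were searched for 4 spellings of the E2F site, TTTCCCGC, TTTCGCGC, TTTGCCGC and TTTGGCGC, on both strands. The search used RefSeq windows of build GRCm38.p6, from 250 bases before to 50 bases after a RefSeq start site. Some genes had more than 1 window. For Dut, Cdc6 and Mcm7 every window lay within the gene as annotated in GENCODE M21, so sequence before that gene start was not searched. A window was found for 34 of the 41 genes, and not for Ccne2, Gins1, Gins2, Mcm4, Pole, Prim2 and Rfc2. At least 1 spelling was present for 12 of the 34 genes (35.3%), against 704 of 27025 genes in the table (2.6%). The letters were in 7 of 9 licensing genes, namely Cdc6, Cdt1, Mcm3, Mcm5, Mcm6, Mcm7 and Orc1, and in 0 of 5 genes of nucleotide supply. Lig1, Pola1, Pold1, Rfc3 and Uhrf1 were the other 5. Among other replication genes, a separate list, the share was the same, 12 of 34, while mitosis genes held it in 1 of 18 (5.56%). The CCAAT box, searched as CCAAT on both strands, was present in 21 of 34 genes (61.8%), against 41.1% of all genes. A match is a run of letters, not a shown binding site. The 200 bases before the start site are printed for Mcm5 and Mcm6, where 2 matches on opposite strands overlap, for Pola1, with a single match, and for Tyms, which had none in its window. Capitals mark the E2F letters. Mcm5 is at chr8:75109309-75109508 on the plus strand, Mcm6 at chr1:128359706-128359905 on the minus strand, Pola1 at chrX:93632156-93632355 on the minus strand and Tyms at chr5:30073626-30073825 on the minus strand, each written 5′ to 3′ in the direction of the gene.
Mcm5: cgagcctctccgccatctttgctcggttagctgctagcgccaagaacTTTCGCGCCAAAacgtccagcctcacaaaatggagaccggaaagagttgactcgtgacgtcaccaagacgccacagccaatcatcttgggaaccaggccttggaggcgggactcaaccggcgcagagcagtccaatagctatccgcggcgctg
Mcm6: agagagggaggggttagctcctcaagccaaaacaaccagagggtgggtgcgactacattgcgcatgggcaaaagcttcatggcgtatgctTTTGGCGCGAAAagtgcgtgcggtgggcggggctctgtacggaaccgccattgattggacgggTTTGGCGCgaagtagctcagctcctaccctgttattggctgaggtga
Pola1: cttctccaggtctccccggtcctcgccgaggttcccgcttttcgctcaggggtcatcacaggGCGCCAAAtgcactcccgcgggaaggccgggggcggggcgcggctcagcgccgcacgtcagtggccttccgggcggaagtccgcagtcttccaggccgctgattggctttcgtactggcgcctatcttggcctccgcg
Tyms: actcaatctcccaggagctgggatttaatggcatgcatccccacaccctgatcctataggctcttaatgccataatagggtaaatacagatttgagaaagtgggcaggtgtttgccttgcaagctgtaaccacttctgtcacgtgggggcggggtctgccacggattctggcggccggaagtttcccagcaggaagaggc

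The deposited values are RPKM in the bulk pair and FPKM elsewhere, which count reads or fragments per unit of transcript length and of sequencing depth, so levels of different genes can be set side by side. Total reads were not given, and an exact 0 can be a failed estimate, so a gene is described only as listed at 0. The files fall into 4 tables that list different genes: the bulk pair, the sorted wild-type libraries numbered 1, those numbered 2 together with KO, and the antibody libraries. Pairs of libraries were compared within a table. The population fits, the 9-library fits, and means and ranges over the sorted libraries span both sorted tables. The main population fits have no term for the table, so differences between these tables enter their spread. Genes at 1 or more numbered 8860 to 10362 in the sorted libraries, but 5752 in Control against 8640 in anti_PD1. Defining genes of CD8 T cells stood at 1 or more in every library for all 9 listed of 10 (Trac was not listed), with a summed level of 2164 to 9057 FPKM in the sorted libraries. B7S1R_SP wild type numbered 2, B7S1R_SP labelled KO and DN labelled KO were lowest in that sum, at 2394, 2164 and 3485 FPKM, against 4796 FPKM or more in the other 6, and highest in Ptcra, a gene of immature T cells, at 103, 108 and 107 FPKM against 14.2 FPKM or less. Across the 41 genes, DN labelled KO correlated at 0.977 with B7S1R_SP labelled KO and at 0.809 with the DN library of the same table, a description over genes, which are not independent. Vtcn1, which encodes B7S1, was listed at 0 FPKM in the 3 wild-type libraries numbered 2, at 0.16 to 2.5 FPKM in the sorted KO libraries, and at 0.0687 and 9.46 RPKM in bulk wild type and KO. The transcript was thus higher in the libraries labelled KO, and the labels do not say which part of the gene is removed. KO below means the libraries labelled so, and each genotype direction rests on that label.

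**Figure D1:**
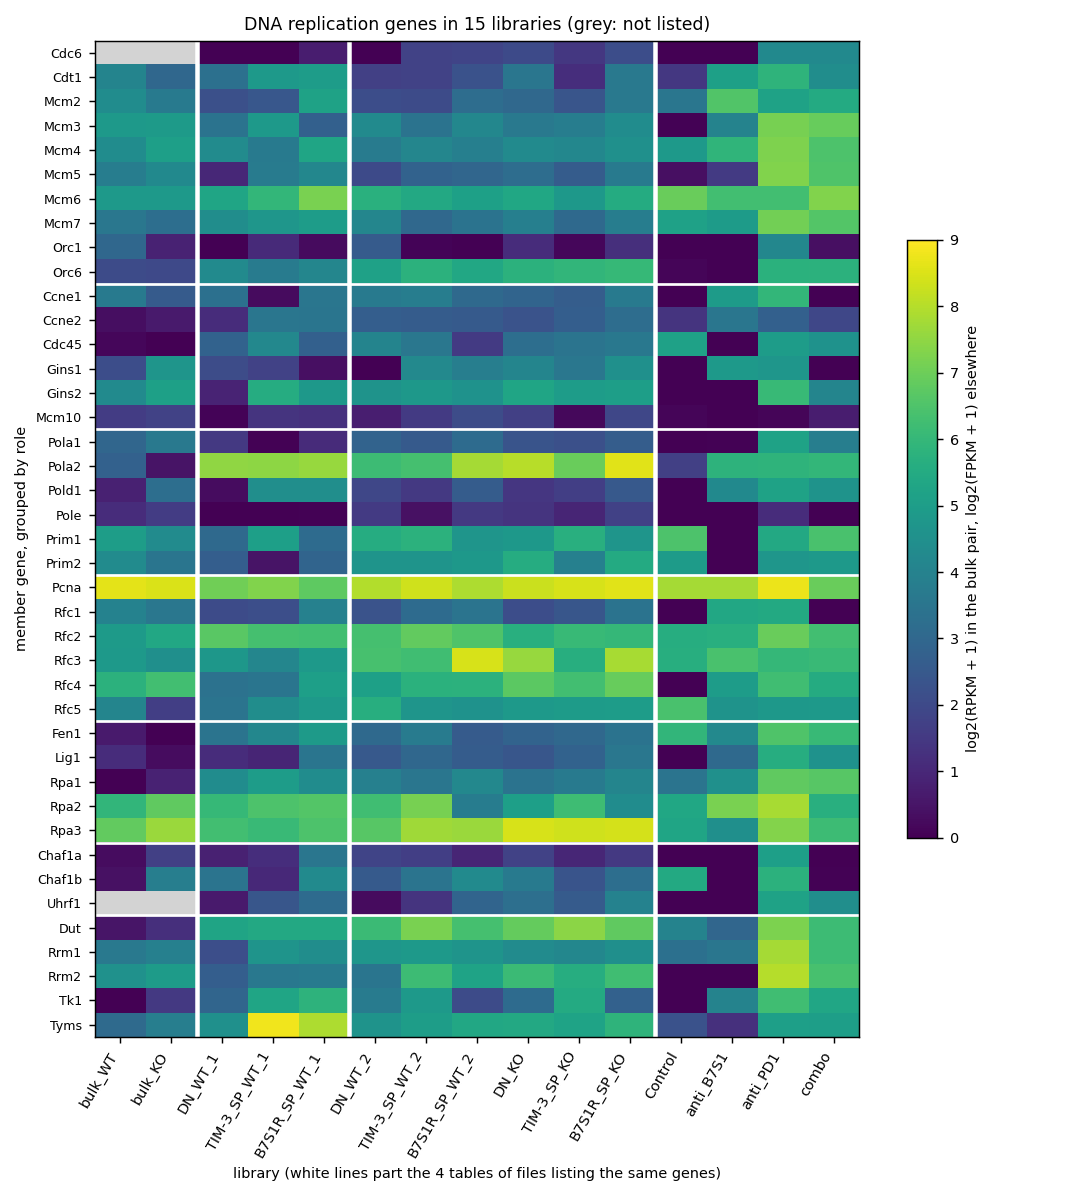
Level of each of the 41 genes (vertical axis, grouped by role) in each of the 15 libraries (horizontal axis), as log2(RPKM + 1) in the bulk pair and log2(FPKM + 1) elsewhere, with grey for genes not listed. Pcna is bright in every column, Pole, Mcm10 and Orc1 are dark in most, and the anti_PD1 column is brighter than Control for 34 of the 39 genes that reach 5 FPKM in either of those libraries.

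Pcna, the sliding clamp that holds polymerases on DNA, had the highest mean over the 9 sorted libraries, 251 FPKM, with a range of 108 to 387 FPKM. Rpa3, the smallest subunit of the single-strand binding protein, followed with 195 FPKM (67.5 to 347). Pola2, the accessory subunit of polymerase alpha, averaged 187 FPKM (70.4 to 385), whereas Pola1, the catalytic subunit of the same complex, averaged 3.90 FPKM (0.04 to 7.90). The ranges of these partners did not overlap over the sorted libraries, although in the antibody libraries anti_PD1 and combo they stood nearer, at 56.7 and 60.9 FPKM for Pola2 against 35.5 and 13.4 FPKM for Pola1. Rfc3, a subunit of the clamp loader, averaged 116 FPKM with a spread from 16.5 to 350 FPKM. Tyms, the thymidylate synthase that makes dTMP, averaged 103 FPKM with a spread from 21.9 to 442 FPKM. These ranges of Rpa3, Pola2, Rfc3 and Tyms overlap one another and that of Pcna. At the other end stood Pole, the catalytic subunit of the leading-strand polymerase, at 0.992 FPKM, Orc1 at 1.00 FPKM, Cdc6 at 1.53 FPKM and Mcm10 at 1.56 FPKM. Pole was listed at 0 in 5 of the 15 libraries, Cdc6 in 4 of the 13 that listed it and Orc1 in 4.

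Subunits of 1 complex were not at 1 level. In the helicase ring, Mcm6 averaged 53.7 FPKM over the sorted libraries, Mcm4 18.9 FPKM, Mcm7 15.9 FPKM, Mcm3 14.8 FPKM, Mcm2 9.06 FPKM and Mcm5 7.94 FPKM. The range of Mcm6, 27.1 to 143 FPKM, overlapped that of Mcm4, 12.0 to 38.2 FPKM, so neighbours in this order did not separate over libraries, but Mcm6 lay above Mcm5 (0.99 to 16.8 FPKM) in all 9. In the clamp loader, Rfc1, the large subunit, averaged 6.69 FPKM and Rfc2 80.2 FPKM, and their ranges, 3.18 to 14.6 and 49.6 to 113 FPKM, did not overlap. Among the single-strand binding proteins the order was Rpa3, Rpa2 (67.5 FPKM) and Rpa1 (16.7 FPKM). Dut, the enzyme that keeps uracil out of DNA, averaged 90.9 FPKM, above Rrm2 (37.6 FPKM) and Rrm1 (20.3 FPKM), the small and large subunits of the reductase that makes deoxynucleotides. In GENCODE M21 at least 500 exon bases of Gins2, Chaf1a, Fen1, Rfc2 and Ccne2 lie opposite an exon of another gene (Gse1, Ubxn6, Gm10143, Lat2 and Ints8), and Pcna and Tyms have annotated pseudogenes. Whether the counting used strand is not given in the sources used here, so the values of these 7 genes may hold reads of those partners.

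**Figure D2:**
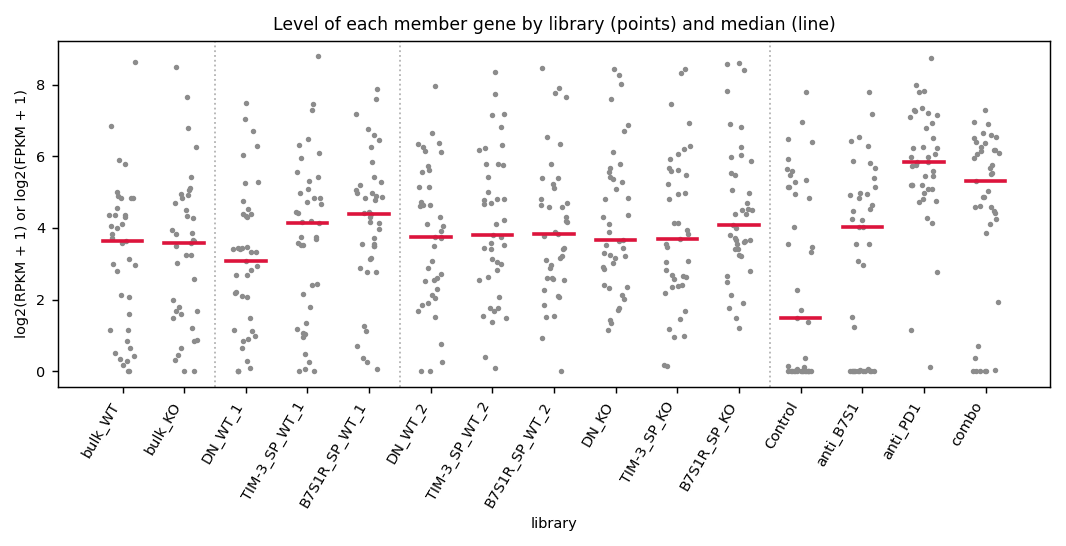
Each point is 1 of the 41 genes (39 in the bulk pair), plotted as log2(RPKM + 1) or log2(FPKM + 1) by library, and each red line is the library's median. The median of DN wild type numbered 1 is the lowest of the sorted libraries, at 3.09 on this scale, and the medians of the antibody libraries range from 1.48 in Control to 5.85 in anti_PD1.

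The antibody libraries ask how blocking PD-1, B7S1 or both changed tumour CD8 T cells. Most DNA replication genes stood highest in anti_PD1 and lowest in Control. Their median was 1.78 FPKM in Control, 15.2 FPKM in anti_B7S1, 56.7 FPKM in anti_PD1 and 38.7 FPKM in combo. Of the 41 genes, 14 were listed at 0 in Control, 11 in anti_B7S1, 0 in anti_PD1 and 4 in combo, and 17, 23, 38 and 32 reached 10 FPKM in the same order. With 1 library per title there is no replicate check and no p-value. Over the 39 genes at 5 FPKM or more in at least 1 of the 4 libraries, anti_PD1 was the highest library for 28, while 25.1% of all genes in the table had their highest value there. Control was lowest, or tied for lowest, for 26 of the 39 (45.6% of all genes).

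Between anti_PD1 and Control, 30 of 39 replication genes were 2-fold or more higher on the log2(FPKM + 1) scale, where 43.8% of all genes at 5 FPKM or more in the higher library were. Only Rfc5 and Prim1 were 2-fold or more lower (23.8% of all genes). The median difference was 4.15 on the log2 scale against 0.49 for all 7829 genes counted, with genes listed at 0 in Control included. Of the 30 genes, 13 were listed at 0 in Control, so for them no fold is given. Among genes above 0 in both libraries, an alternative chosen after seeing the data, 17 of 26 were 2-fold or more higher and the background was 28.5%, and the median difference was 2.01 against -0.07 for all such genes. A second pair, combo against anti_B7S1, shares no library with the first, and also differs by the PD-1 antibody if the title combo stands for both antibodies, which the labels do not spell out. There 20 of 36 genes were 2-fold or more higher (33.3% of all genes) and 6 were 2-fold or more lower (30.8%), with a median difference of 1.58 against 0.06 for all genes. Above 0 in both libraries, 13 of 27 were higher, with 26.6% of all genes, and the median was 0.99 against -0.02.

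In both pairs together, 16 of 36 replication genes were 2-fold or more higher, against 15.6% of all genes counted in both, and 0 were 2-fold or more lower in both (7.29%). By role these were 5 of 5 genes of nucleotide supply, 5 of 9 licensing genes, 3 of 5 strand-binding and joining genes, and Gins2, Pola1 and Uhrf1. None of the 6 genes of the clamp and clamp loader was among them. Upper-quartile scaling, which sets the upper quartile of nonzero values equal across libraries, moved the median of all genes from 0.49 to 1.24 between anti_PD1 and Control and from 0.06 to -0.18 between combo and anti_B7S1. The medians of the replication genes then stood at 4.49 and 1.36.

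Nucleotide supply was the role with every gene higher in both pairs. Rrm1 read 8.95 FPKM in Control, 10.7 FPKM in anti_B7S1, 221 FPKM in anti_PD1 and 70.3 FPKM in combo. Its level with the PD-1 antibody was thus 24.7 times that of Control and, in the other pair, 6.58 times that of anti_B7S1. Rrm2, its partner subunit, was listed at 0 in Control and anti_B7S1 and stood at 255 and 82.6 FPKM in anti_PD1 and combo. Tyms had 3.78, 1.36, 33.2 and 31.8 FPKM in the order Control, anti_B7S1, anti_PD1 and combo. Dut, at 15.3, 6.82, 147 and 71.2 FPKM in that order, showed the same split between libraries with and without the PD-1 antibody. Tk1, the thymidine kinase of S phase, was listed at 0 in Control and read 15.2 FPKM in anti_B7S1, 74.0 FPKM in anti_PD1 and 38.7 FPKM in combo.

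Licensing genes followed the same order with exceptions. Mcm5 read 0.28 and 1.86 FPKM in Control and anti_B7S1 against 155 and 91.7 FPKM in anti_PD1 and combo. Mcm3 stood at 0.04, 15.3, 141 and 118 FPKM in the order Control, anti_B7S1, anti_PD1 and combo. Orc6 was at 0.08 FPKM in Control, listed at 0 in anti_B7S1, and at 52.6 and 53.5 FPKM in anti_PD1 and combo. Cdc6 showed the same 2-level pattern, with at most 0.01 FPKM without the PD-1 antibody and 18.3 and 18.1 FPKM with it. Mcm6 did not: it read 123 FPKM in Control, 77.4 FPKM in anti_B7S1, 76.4 FPKM in anti_PD1 and 155 FPKM in combo. Mcm2 was highest in anti_B7S1, at 92.3 FPKM, with 10.7, 35.5 and 44.3 FPKM in Control, anti_PD1 and combo.

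Some genes split the libraries another way. Prim1, the catalytic subunit of primase, was listed at 0 in anti_B7S1 alone and read 88.1, 42.6 and 83.4 FPKM in Control, anti_PD1 and combo. Prim2, its partner, was also listed at 0 in anti_B7S1 alone, with 25.6 to 30.0 FPKM in the other 3. Cdc45, which completes the active helicase, was listed at 0 there too, with 34.5, 30.5 and 23.1 FPKM in Control, anti_PD1 and combo. Conversely Ccne1, which encodes cyclin E1, Gins1 and Rfc1 were listed at 0 in Control, read 27.4 to 40.9 FPKM in anti_B7S1 and 25.8 to 61.9 FPKM in anti_PD1, and were at 0.01 FPKM or less in combo. Chaf1b, a subunit of the histone chaperone of the fork, stood at 43.5 and 53.6 FPKM in Control and anti_PD1 and at 0 and 0.03 FPKM in anti_B7S1 and combo. Such switches between high levels and 0 in genes that act in 1 complex limit what a single library says of a single gene.

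**Figure D3:**
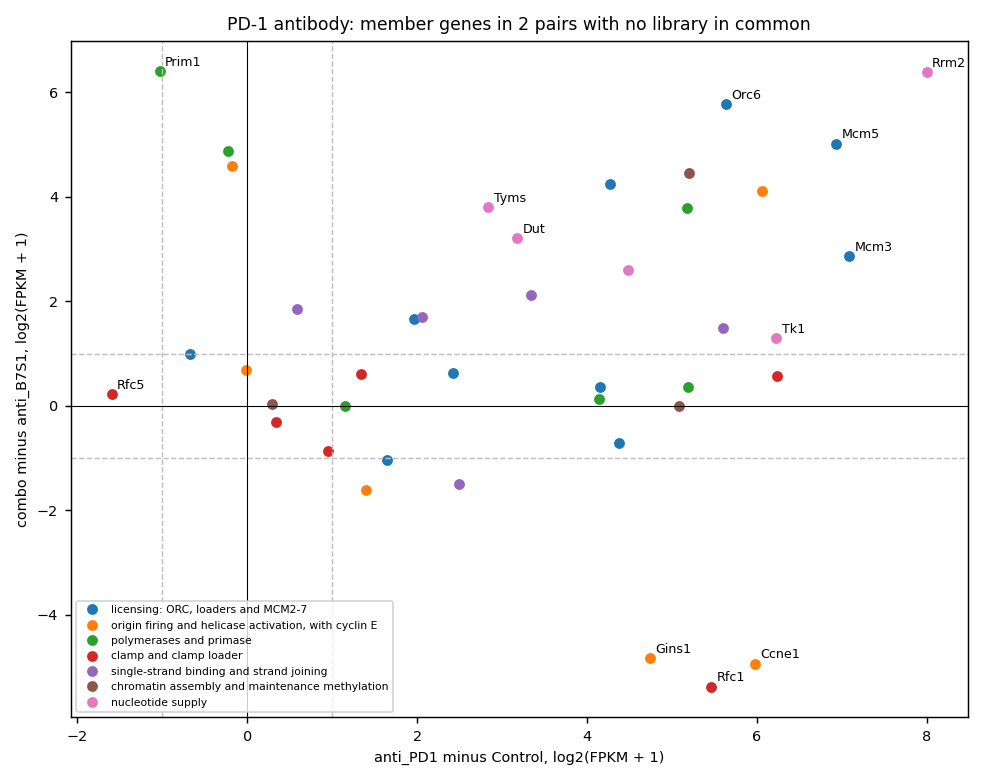
Each point is 1 of the 41 genes, coloured by role, with the difference anti_PD1 minus Control on the horizontal axis and combo minus anti_B7S1 on the vertical axis, both in log2(FPKM + 1), and dashed lines at 2-fold. The 5 genes of nucleotide supply lie in the upper right, Ccne1, Gins1 and Rfc1 lie at the lower right, and no point lies beyond 2-fold lower in both.

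The B7S1 antibody gave no shared direction. Against Control, 15 of 29 replication genes were 2-fold or more higher in anti_B7S1 (37.9% of all genes) and 7 were 2-fold or more lower (29.0%), with a median difference of 1.04 against 0.20 for all genes. Above 0 in both libraries, 8 of 18 were higher, with 29.6% of all genes. Added to the PD-1 antibody, combo against anti_PD1, it came with 1 of 39 genes 2-fold or more higher, Mcm6 (23.6% of all genes), and 16 lower (32.7%), with a median of -0.75 against -0.15. Over both pairs 0 genes were higher in both (8.32%) and 2, Chaf1b and Dut, were lower in both (8.44%). In combo against Control, 21 of 33 genes were higher (40.1%) and 2 lower (28.0%), with a median of 2.78 against 0.27 for all genes. Of the 21, 8 were listed at 0 in Control. Among genes above 0 in both libraries, 13 of 25 were higher (29.5% of all genes), with a median of 1.46 against -0.04. This comparison shares libraries with those above. Under upper-quartile scaling 25 rather than 16 genes were lower in combo than in anti_PD1, while all genes went from -0.15 to -0.71.

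Other genes of the cell cycle were counted from lists chosen by function. Of 20 mitosis genes, which act after DNA is copied, 17 were counted in both PD-1 pairs, and all 17 were 2-fold or more higher in both. Their median level was 0 FPKM in Control and anti_B7S1, 57.5 FPKM in anti_PD1 and 63.9 FPKM in combo. Of other replication genes, 16 of 33 were higher in both pairs and 1 was lower, of other nucleotide synthesis genes 3 of 20 were higher and 1 lower, of the E2F family and S-phase regulators 2 of 11 and 1, and of cell cycle inhibitors and quiescence genes 0 of 9 and 2. CD8 T cell genes summed to 3711 and 3793 FPKM in Control and anti_B7S1 and to 3853 and 5524 FPKM in anti_PD1 and combo. Markers of myeloid cells, of which 11 of 16 were listed, summed to 493, 209, 135 and 148 FPKM in the order Control, anti_B7S1, anti_PD1 and combo, with 2, 1, 6 and 2 of the 11 at 1 FPKM or more. Erythroid genes, 5 of 6 listed, summed to 38.5 and 40.2 FPKM without the PD-1 antibody and to 0.09 and 0.16 FPKM with it. Genes of immature T cells, 3 of 6 listed, summed to 3.15, 21.8, 0.71 and 1.01 FPKM in the same order as the myeloid genes. NK cell genes, 3 of 4 listed, summed to 1.07, 0.08, 32.6 and 0.21 FPKM and B cell genes, 3 of 6 listed, to 0.09, 0, 13.2 and 0.04 FPKM, so both stood highest in anti_PD1 but not in combo. Klrb1c, a receptor of NK cells, led there with 19.3 FPKM, and Cd79b, of the B cell receptor, with 12.5 FPKM, while Cd79a was listed at 0. CD4 and regulatory T cell genes, all 4 listed, summed to 1.57 FPKM or less, and Pecam1, the 1 stromal and endothelial gene listed of 6, was highest in Control at 25.9 FPKM. The number of genes at 1 FPKM or more was higher in anti_PD1 than in Control, 8640 against 5752, but not in combo than in anti_B7S1, 6913 against 6972. The part of these differences in the result was not tested. In RNA from many cells, more cells in cycle and more transcript per cell cannot be told apart.

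TIM-3_SP and DN cells carry PD-1 alike and differ in Tim-3. In the wild-type libraries, TIM-3_SP stood above DN in both numbered sets for 16 of 39 tested replication genes, where 16.2% of all genes were, and Pola1 and Rfc3 were lower in both (31.2% of all genes). All 5 genes of nucleotide supply were among the 16, with a median difference of 1.71 on the log2(FPKM + 1) scale. In the KO libraries only 2 of these 5 were higher, with a median of -0.20. The other 11 of the 16 were Mcm5, Cdt1, Mcm10, Gins2, Prim1, Pcna, Rfc1, Rfc4, Fen1, Rpa2 and Uhrf1. None passed a test over all genes. Cdc6 and Pole had a mean under 1 FPKM in the 6 libraries and were not tested.

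Tyms in the set numbered 1 read 442 FPKM with Tim-3 and 21.9 FPKM in DN, and 31.1 and 23.8 FPKM in the set numbered 2. Its difference was 2.32 ± 1.35 (log2, SE, n = 2 libraries per population; limma adjusted p = 1), and most of it came from set 1. Rrm2 had 11.1 against 5.46 FPKM in set 1 and 71.6 against 10.2 FPKM in set 2, a difference of 1.80 ± 1.06 (limma adjusted p = 1). The DN levels of Rrm2 lay below both TIM-3_SP levels, and the share of all genes that separate so was not counted. Gins2, a subunit of GINS, was at 46.5 against 0.85 FPKM in set 1 and 26.5 against 23.7 FPKM in set 2 (2.42 ± 1.20, limma adjusted p = 1). Tk1 stood above its DN level in both wild-type sets, with 38.4 against 6.64 and 27.2 against 12.5 FPKM, and also in the KO libraries, with 43.8 against 7.90 FPKM. Tyms, Rrm2 and Gins2 went the other way in the KO libraries, with 36.4 against 42.1, 47.35 against 68.5 and 30.2 against 38.3 FPKM. Pola1 had 0.04 against 1.79 FPKM and 4.86 against 6.37 FPKM (-0.88 ± 1.14), and Rfc3 16.5 against 26.1 and 74.1 against 81.4 FPKM (-0.38 ± 1.33), both with a limma adjusted p of 1. For Gins2, Tyms and Rrm2 the difference was thus carried mostly by 1 of the 2 sets.

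The limma fit of TIM-3_SP against DN called 0 of 10411 genes (0.0%) at an adjusted p of 0.05. At an unadjusted p under 0.05 it had 358 genes, 0.749% of all genes higher and 2.69% lower, and 0 of the 39 replication genes. With the replicate block 3 replication genes, Gins2, Tyms and Rrm2, were at an unadjusted p under 0.05, all higher (1.53% of all genes). A block for the replicate number let 2 genes pass, neither of them a replication gene, and Gins2, Tyms and Rrm2 had adjusted p-values of 0.783, 0.763 and 0.784. The 39 genes had a median of 0.36 with 31 higher, against -0.17 and 41.14% of all genes, which became 0.03 and 51.74% under upper-quartile scaling. DN wild type numbered 1 bears much of this: without it the median was 0.18, against -0.12 for all genes. Its replication genes had a median of 7.52 FPKM against 16.48 and 19.96 FPKM in the other libraries numbered 1. It listed 3455 genes at 0 against 2037 and 2247. In the KO libraries, which the test did not use, the median of the replication genes was -0.20, against -0.06 for all genes. There 16 of 39 replication genes were higher in TIM-3_SP, where 4516 of 10411 genes were. Higher in all 3 pairs were 7 genes (8.64% of all genes). Myeloid markers summed to 170 and 194 FPKM in TIM-3_SP against 690 and 311 FPKM in DN. In set 2 single markers went both ways. Cd74, Cd68 and H2-Eb1 read 163, 88.3 and 18.9 FPKM in DN against 45.7, 17.9 and 3.94 FPKM in TIM-3_SP. Fcer1g read 24.7 FPKM in DN against 93.6 FPKM. C1qa, C1qb, Tyrobp, H2-Aa and H2-Ab1 were listed at 0 in DN and at 1.99 to 7.86 FPKM in TIM-3_SP. Erythroid genes, all 6 of them listed in set 2, summed there to 95221 FPKM in TIM-3_SP against 66205 FPKM in DN. The part of these markers was not tested. Mitosis genes were higher in both wild-type sets for 12 of 19 tested and lower for 1, other replication genes for 8 and 14 of 34, and other nucleotide synthesis genes for 2 and 13 of 25.

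B7S1R_SP and TIM-3_SP cells each carry 1 of the 2 sorted receptors. Between them the counts of replication genes lay near the shares of all genes. Higher in B7S1R_SP in both wild-type sets were 13 of 39 (31.1% of all genes), among them 4 of 5 polymerase genes (Pola1, Pola2, Pold1 and Prim2) and 4 of 9 licensing genes (Mcm2, Mcm5, Mcm7 and Cdt1). Lower in both were 10 (21.3%), among them 4 of 6 genes of origin firing (Cdc45, Gins1, Gins2 and Ccne2) and Rrm1 and Dut. All 13 were higher in the KO libraries too (24.3%), but of the 10 only Prim1, Rfc2 and Dut were lower there too (13.8%). All 6 genes of origin firing were higher in B7S1R_SP in the KO pair, against their direction in wild type for the 4 named. In that pair 34 of 39 replication genes and 6166 of 10411 genes were higher in B7S1R_SP. No difference between roles was tested. The median difference was 0.15, and that of all genes 0.16.

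Mcm2 in set 1 read 35.7 FPKM in B7S1R_SP and 4.42 FPKM in its TIM-3_SP partner, and in set 2 it read 8.23 and 3.18 FPKM. The KO pair had 11.6 and 4.23 FPKM, so B7S1R_SP was higher in all 3 pairs. Its wild-type difference was 1.95 ± 0.89 (limma adjusted p = 0.999, and 0.589 with the replicate block). Over all 9 libraries with the set as a block it was 1.72 ± 0.53 with an adjusted p of 0.195, the smallest that any replication gene reached in the 60 limma fits. Chaf1b had 18.6 against 1.04 FPKM in set 1 and 18.7 against 9.93 FPKM in set 2 (2.06 ± 0.97, limma adjusted p = 0.999), and 8.55 against 4.10 FPKM in KO. Rfc3 was at 28.0 against 16.5, 350 against 74.1 and, in KO, 227 against 48.5 FPKM (1.48 ± 1.33, limma adjusted p = 0.999). All 3 of these genes were thus higher in B7S1R_SP in each pair. Cdc45 went the other way, with 5.83 against 17.5 FPKM and 1.90 against 10.9 FPKM (-1.74 ± 0.86, limma adjusted p = 0.999), but in KO it read 11.3 against 10.0 FPKM. Prim1 had 7.82 against 33.0, 24.98 against 54.7 and, in KO, 25.1 against 49.6 FPKM (-1.52 ± 1.05, limma adjusted p = 0.999), lower in B7S1R_SP in each pair, whereas its partner Prim2 was higher in each. Gins1 read 0.29 against 2.45 and 13.4 against 17.8 FPKM (-0.90 ± 1.39, limma adjusted p = 0.999), but in KO 21.88 against 10.75 FPKM, the other way.

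Between these populations limma called 0 of 10411 genes (0.0%), with 493 at an unadjusted p under 0.05, 3.14% of all genes higher and 1.59% lower, and 0 replication genes among them. At that level stood 2 replication genes with the replicate block, Mcm2 and Chaf1b, both higher (5.35% of all genes), and with 9 libraries 5 higher (9.83%) and 2 lower (5.06%). With the replicate block 7 genes passed, and with 9 libraries and the set as a block 42, and no replication gene was among them. Myeloid markers, of which 13 of 16 were listed in set 1 and all 16 in set 2 and KO, summed to 2419, 787 and 8569 FPKM in B7S1R_SP of set 1, set 2 and KO, against 170 to 290 FPKM in TIM-3_SP. At 1 FPKM or more were 11, 14 and 16 of them in B7S1R_SP and 8, 10 and 9 in TIM-3_SP. The sums of CD8 T cell genes, in the order set 1, set 2 and KO, were 4796, 2394 and 2164 FPKM with the B7S1 receptor, while with Tim-3 they were 7113, 9057 and 6726 FPKM. Ptcra, in the same order, read 5.32, 103 and 108 FPKM in B7S1R_SP and 14.2, 3.44 and 9.11 FPKM in TIM-3_SP. Of the other immature T cell genes, Dntt read 16.2, 28.35 and 10.4 FPKM in B7S1R_SP and 0.19, 0.95 and 0.89 FPKM in TIM-3_SP. Cd1d1 read 15.7, 3.40 and 7.16 FPKM in B7S1R_SP and 14.7, 16.3 and 10.4 FPKM in TIM-3_SP. The part of these markers in the differences was not tested. Mitosis genes were higher in B7S1R_SP in both sets for 1 of 19 and lower for 6.

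B7S1R_SP and DN cells both lack Tim-3 and differ in the B7S1 receptor. Here 19 of 39 replication genes were higher in B7S1R_SP in both wild-type sets (23.4% of all genes), 15 of them in the KO libraries too (15.7%), and Mcm3, Pcna and Cdc45 were lower in both (25.3%). In the KO libraries Mcm3, Pcna and Cdc45 were higher in B7S1R_SP, so 0 replication genes were lower in all 3 pairs (13.9% of all genes). Uhrf1, which directs the methylation of newly copied DNA, read 7.96 FPKM against 0.58 FPKM in set 1 and 6.42 against 0.20 FPKM in set 2. Its wild-type levels in B7S1R_SP lay above both DN levels, and the difference was 2.57 ± 0.78 (limma adjusted p = 1, unadjusted p = 0.0112). How many of all genes separate so in wild type was not counted. In the KO pair Uhrf1 read 14.98 against 8.77 FPKM. Mcm5 had 16.8 against 0.99 FPKM and 6.81 against 3.10 FPKM (2.05 ± 0.86, limma adjusted p = 1, unadjusted p = 0.0448). Pold1, the catalytic subunit of the lagging-strand polymerase, was at 20.9 against 0.22 FPKM and 5.12 against 2.74 FPKM (2.44 ± 1.20), and Tyms at 235 against 21.9 and 40.7 against 23.8 FPKM (2.06 ± 1.35), both with a limma adjusted p of 1. Of the genes lower in both sets, Cdc45 differed by -1.29 ± 0.86, with 5.83 against 6.13 FPKM and 1.90 against 15.5 FPKM, so that only set 2 carried the difference. Mcm3 and Pcna differed by -0.39 ± 0.91 and -0.18 ± 0.86 (limma adjusted p = 1 for all 3), and Pcna stood at 0.06 under upper-quartile scaling.

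Again limma called 0 of 10411 genes (0.0%), with 280 at an unadjusted p under 0.05, of which Uhrf1 and Mcm5 were the replication genes, both higher, where 1.27% of all genes were. With the replicate block these were joined by Mcm2 and Pold1, giving 4 genes, all higher (2.69% of all genes). The replicate block also called 0, with Uhrf1 at an adjusted p of 0.796. The median of the replication genes was 0.65 with 29 of 39 higher, against -0.03 and 48.71% of all genes. Upper-quartile scaling gave 0.96 with 35 of 39 higher, against 0.15 and 57.56% of all genes. Without DN wild type numbered 1 the median was 0.35, against 0 for all genes. In DN the myeloid sum was 690, 311 and 353 FPKM, where B7S1R_SP had 2419, 787 and 8569 FPKM. Ptcra read 4.21, 3.15 and 107 FPKM in DN and 5.32, 103 and 108 FPKM in B7S1R_SP, in the order set 1, set 2 and KO. The part of both was not tested. Cell cycle inhibitors and quiescence genes were lower in B7S1R_SP in both sets for 8 of 12 tested and higher for 1.

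**Figure D4:**
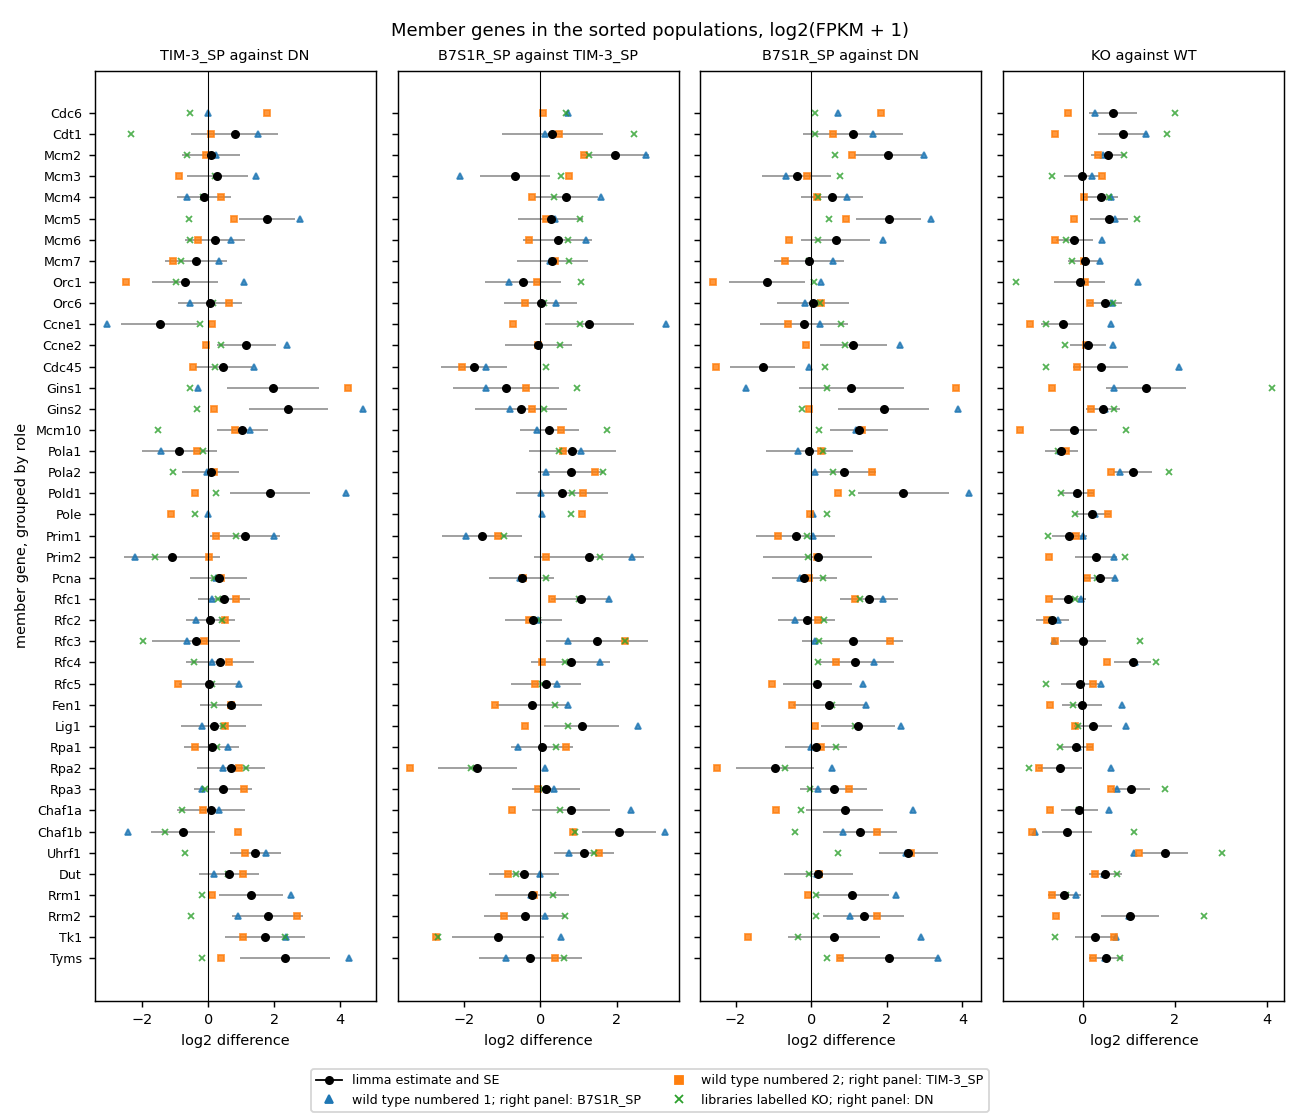
Differences in log2(FPKM + 1) for each of the 41 genes (vertical axis, grouped by role) in the 3 population comparisons and the KO comparison, with the limma estimate and its SE in black and the difference in each pair of libraries as coloured symbols. The bars of most genes cross 0, and the triangles of wild type numbered 1 lie farther out than the squares of numbered 2 for Tyms, Gins2 and Pold1 in the comparisons with DN.

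The sorted KO libraries address the effect of the host's B7S1 on the T cells. Only the wild-type libraries numbered 2 are in the same table, so the fit used those 3 and the 3 KO libraries with the population as a term. The replication genes were higher in KO in all 3 populations for 11 of 41, where 14.1% of all genes were, namely Orc6, Mcm2, Mcm4, Gins2, Pola2, Pcna, Rfc4, Rpa3, Uhrf1, Tyms and Dut. They were lower in all 3 for 4, namely Pola1, Rfc1, Rfc2 and Rrm1 (23.5% of all genes). No replication gene passed.

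Uhrf1 read 14.98, 5.0 and 8.77 FPKM in KO against 6.42, 1.57 and 0.20 FPKM in wild type, in the order B7S1R_SP, TIM-3_SP and DN. It differed by 1.79 ± 0.50 (log2, SE, n = 3 libraries per genotype; limma adjusted p = 0.367). The wild-type and KO levels overlapped, since TIM-3_SP in KO lay below B7S1R_SP in wild type. Pola2 stood at 385, 122 and 260 FPKM in KO against 218, 79.5 and 70.4 FPKM (1.0995 ± 0.42, limma adjusted p = 0.380). Rfc4, another clamp loader subunit, had 120, 76.6 and 104 FPKM in KO against 54.1, 52.8 and 34.1 FPKM (1.08 ± 0.39, limma adjusted p = 0.374), and Rpa3 had 341, 322 and 347 FPKM against 202, 211 and 99.9 FPKM (1.05 ± 0.41, limma adjusted p = 0.390). For Rfc4 and Rpa3 every KO level lay above every wild-type level. How many of all genes separate in this way, in either direction, was not counted. Rfc2 was lower in KO, with 62.8, 65.8 and 49.6 FPKM against 91.6, 113 and 80.0 FPKM and no overlap (-0.66 ± 0.36, limma adjusted p = 0.477). Pola1 had 5.35, 3.56 and 4.07 FPKM against 7.90, 4.86 and 6.37 FPKM (-0.46 ± 0.36), and Rrm1 21.4, 16.8 and 19.4 FPKM against 24.0, 27.2 and 25.4 FPKM (-0.40 ± 0.36), with limma adjusted p-values of 0.593 and 0.641. Over 9 libraries with the population as a term, Pola1 and Rrm1 turned to 0.53 and 0.09.

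The limma fit of genotype called 4 of 10097 genes (0.0396%), all lower in KO, and 1255 had an unadjusted p under 0.05. Of the replication genes Uhrf1, Pola2, Rfc4 and Rpa3 were at an unadjusted p under 0.05 and higher, where 4.01% of all genes were. Their median was 0.21 with 24 of 41 higher, against -0.16 and 40.49% of all genes. Upper-quartile scaling moved these to 0.40 with 33 of 41 and to 0.11 with 56.68%, so the direction of all genes turned with the scaling. Within populations the median of the replication genes was 0.56 in B7S1R_SP, -0.12 in TIM-3_SP and -0.08 in DN, while that of all genes was -0.02, -0.04 and -0.38. The interaction of genotype and population called 0 of 10178 genes (0.0%), with 96 at an unadjusted p under 0.05 and 0 of 40 replication genes tested among them.

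Haemoglobin and other erythroid genes moved with this comparison. All 6 were listed, and they summed to 11150, 95221 and 66205 FPKM in the wild-type libraries of B7S1R_SP, TIM-3_SP and DN, which is 1.13, 9.71 and 7.84% of each library's total, against 4.75, 11.1 and 142 FPKM in KO. The myeloid sum was 8569 FPKM in B7S1R_SP labelled KO against 787 FPKM in wild type, and Ptcra read 107 FPKM in DN labelled KO against 3.15 FPKM in wild type. In the same DN libraries Dntt read 5.68 FPKM in KO against 4.05 FPKM, and Cd1d1 5.17 FPKM in KO against 19.2 FPKM. What part these had in the genotype differences was not tested. Of the other lists, other replication genes were higher in KO in all 3 populations for 13 of 35 tested and lower for 5, mitosis genes for 4 and 0 of 20, and the E2F family and S-phase regulators for 1 and 6 of 21.

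The bulk pair sets 1 KO library against 1 wild-type library, with no replicate check. Of the 28 replication genes at 5 RPKM or more in the higher library, 3 were 2-fold or more higher in KO (10.7% of all genes) and 5 were 2-fold or more lower (12.1%). All 28 were above the lowest value in both libraries, and among all such genes 10.4% were higher. Chaf1b read 13.4 RPKM in KO against 0.330 RPKM in wild type, Gins1 25.1 against 3.36 RPKM and Pold1 8.55 against 0.789 RPKM. The lower genes included Rfc5, with 2.18 against 16.1 RPKM, Pola2, with 0.377 against 5.99 RPKM, Orc1, with 0.795 against 6.97 RPKM, and Ccne1, with 4.97 against 12.2 RPKM. Cdt1, at 7.06 against 15.7 RPKM, was the fifth. Pola2 was higher in KO in each sorted population and lower in bulk. Rpa2, at 110 against 59.2 RPKM, was the next highest below 2-fold. Rpa1 and Tk1 were listed at the lowest value of the file, 0.001 RPKM, in wild type, and Cdc45 and Fen1 in KO. Pcna, with 362 RPKM in KO and 397 RPKM in wild type, was the highest replication gene in both. The median difference was 0.19 against -0.02 for all 6075 genes counted and turned to -0.04 against -0.27 under upper-quartile scaling, so no shared direction was found. Mitosis genes were 2-fold or more higher for 3 of 10 counted and lower for 0.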

How the data were processed

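RNA of sorted CD8 T cells was made into libraries with a SMARTer Ultra Low Input kit and read on Illumina HiSeq machines, per the labels' protocols. The submitters' processing notes name HISAT2, Bowtie2, RSEM and mm10, with no versions. RPKM values were deposited by the authors for the bulk pair, and FPKM values for the other 13 libraries. No counts were used here, so depth is unknown, no count test or counting interval was made, and only the number of libraries limits the precision given. Groups came from the titles, and symbols listed more than once in a file were left out.

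Sorted libraries were compared with limma 3.58.1 in R 4.3.3 on log2(FPKM + 1), keeping genes listed in every library of the fit whose mean reached 1 FPKM, with Benjamini-Hochberg adjustment over all genes and a threshold of 0.05. Fold changes on this scale understate those of low genes. Population fits used the 6 wild-type libraries without a block. In single-library comparisons, a gene had to reach 5 in the higher library, and 2-fold or more was counted with no test. The limma script was tested on simulated data. The replicate numbers of the titles were checked: over 10411 genes, same-numbered libraries deviated together, with correlations of 0.193, 0.269 and 0.401 between populations. The numbers also divide these libraries by table, so this cannot show that they pair. Population SEs and p-values are from the fit without a block unless the block is named, and counts with the block stand beside them. The block changed SEs too: for Tyms between TIM-3_SP and DN from 1.35 to 0.965.

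Named in full were the 3 largest differences each way with one direction in every pair, the 5 highest means over sorted libraries and, for single libraries, the 4 largest differences each way. Other genes were named after their values were seen. The genes and lists were chosen with earlier results of these data known. Alternatives were another pseudocount, other filters, upper-quartile scaling, absent genes taken as 0, blocks, 9-library fits and leaving out each library.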

Additional observations from a re-analysis of the deposited data

Results flagged for a closer look

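In 3 comparisons the median difference of the replication genes had different signs between groups, and these differences were not tested. Between TIM-3_SP and DN the median was 0.45 in wild type numbered 1 and 0.23 in wild type numbered 2 but -0.20 in the libraries labelled KO, on the log2(FPKM + 1) scale, with all genes at 0, -0.33 and -0.06. Between KO and wild type it was 0.56 in B7S1R_SP but -0.12 in TIM-3_SP and -0.078 in DN, with all genes at -0.02, -0.04 and -0.38, so that in DN the replication genes stood above all genes. Between libraries with and without the B7S1 antibody it was 1.04 without the PD-1 antibody (anti_B7S1 against Control) and -0.75 with it (combo against anti_PD1), with all genes at 0.20 and -0.15 and 1 library per title.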

How the results depend on the processing

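No replication gene passed in any of the 60 limma fits. With the replicate block, limma called 2 genes in the first population comparison (TIM-3_SP against DN) and 7 for B7S1R_SP against TIM-3_SP, and with 9 libraries and the set as block 6 and 42. Between KO and wild type it called 4 genes, but 0 with a pseudocount of 0.1, without a filter or with 9 libraries, 7 with upper-quartile scaling, 1 without the population term and 1 with 9 libraries and the replicate block. Leaving out each library in turn gave 0 to 18 calls, with 18 without TIM-3_SP wild type numbered 2 and 13 without TIM-3_SP KO. The median of the replication genes between TIM-3_SP and DN was 0.68 with upper-quartile scaling and 0.18 to 0.77 with a library left out, lowest without DN numbered 1. Leaving out a library turned Pola1 (-2.12 to 0.37) and Rfc3 (-1.43 to 0.67, with 0.42 without DN numbered 2) there, Rfc3 (-0.32 to 3.28) and Gins1 (-2.64 to 0.84, with 0.32 without TIM-3_SP numbered 2) between B7S1R_SP and TIM-3_SP, and Mcm3 (-1.10 to 0.32, with 0.05 without DN numbered 2) and Pcna (-0.75 to 0.39, with 0.28 without DN numbered 2) between B7S1R_SP and DN. Upper-quartile scaling turned Pcna there to 0.063 and the bulk median to -0.037, and 9 libraries with the population term turned Pola1 and Rrm1 to 0.53 and 0.088 between KO and wild type.

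In bulk, 3 replication genes were lower with a minimum of 10, and 5 were higher with no minimum. Upper-quartile scaling left 0 lower in anti_PD1 than in Control, and gave 0 higher and 25 lower in combo than in anti_PD1. Among genes above 0 in both libraries, chosen after seeing the data, 17 were higher in anti_PD1, 8 higher and 3 lower in anti_B7S1 and 13 higher in combo than in Control, and 13 were higher in combo than in anti_B7S1, since fewer genes are counted. Elsewhere the cause was not tested. The other 218 values of comparisons and 284 of single genes were labelled unchanged. Single genes kept their direction and their side of the threshold, and counts moved by a small ratio at most. Medians of the fits moved by less than the spread between pairs of libraries. Medians of single-library comparisons stayed in an interval over the genes, which are not replicates, so that label is weak. Between anti_B7S1 and Control the median went from 1.04 to 0.014 with no minimum and was still labelled so. The interaction fits, which called 0 replication genes each, were labelled so without a rule. Depth is unknown, so low genes such as Pole and Orc1 are least certain.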

Other observations

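The CCAAT letters were more frequent in promoters of mitosis genes, 16 of 18 (88.9%), than in those of the replication genes, 21 of 34, while the E2F letters were more frequent in the latter, a description of sequence with no test. Among the E2F family and S-phase regulators the E2F letters were in 7 of 16 promoters (43.8%), and among other nucleotide synthesis genes in 1 of 22 (4.55%).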
